A study of Mus musculus with 8 samples.

Results

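Transcription factors of the cortical interneuron lineage, 9 genes in all, were followed in single nuclei of the mouse cerebral cortex: Lhx6, Sox6, Satb1, Maf, Prox1, Nr2f2, Npas1, Dlx1 and Npas3. They were taken by symbol from the 32285 genes counted, and all 9 were found. No level of these genes was used to choose nuclei. The nuclei came from 8 C57BL/6J mice at postnatal day 25 (P25), 4 wild type (WT) and 4 heterozygous for Chd8 (Chd8het). Each genotype had 2 males and 2 females, and each animal gave 1 library. Chd8 encodes a chromatin remodelling enzyme, and the labels describe neither the allele nor how it was made. The cortex was taken without its medial portion and frozen, and the animals formed 4 pairs of like sex and litter, although which libraries belong to a pair is not labelled. Within each sex and genotype, the first library carried a single index and the second a dual index.

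Cortical interneurons release GABA, which is made by the enzymes Gad1 and Gad2, and they are born outside the cortex, in the ganglionic eminences of the embryo. Cells of the medial ganglionic eminence (MGE) become mainly the Pvalb and Sst types, and cells of the caudal eminence (CGE) become the Vip type and many Reln cells. Dlx factors act early in both. Lhx6, and below it Sox6, Satb1 and Maf, direct the migration and maturation of MGE cells, whereas Prox1 and Nr2f2 (COUP-TFII) do so in CGE cells. Npas1 and Npas3 are bHLH-PAS factors of interneuron progenitors and their offspring. Several of the 9 are not specific to interneurons: Sox6 acts in oligodendrocyte precursors (OPCs), Prox1 in oligodendrocytes, Nr2f2 in blood vessels and Maf in macrophages.

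The 9 genes lie on 6 chromosomes (GRCm38, GENCODE M21): Lhx6 at chr2:36081953-36105408, Sox6 at chr7:115470872-116038796, Satb1 at chr17:51736187-51833290, Maf at chr8:115682942-115707794, Prox1 at chr1:190118035-190170714, Nr2f2 at chr7:70351944-70366735 and Npas1 at chr7:16455721-16477728, all on the minus strand, and Dlx1 at chr2:71528113-71533981 and Npas3 at chr12:53248677-54072175 on the plus strand. Whether intron reads were counted is not given in the sources used here. RefSeq promoter windows of 300 bases (GRCm38.p6) were found for 8 of the 9 genes, 20 start sites in all. They were searched on both strands for 4 short motifs, none of which overlaps another: the SOX site AACAAT (in 10.7% of all 32851 promoter windows), the homeodomain core TAATTA (5.29%), the MAF motif TGCTGA (19.5%) and the NPAS type site ACGTG (19.6%). Of the 20 windows, 5 held at least 1, and these belong to 3 genes. By gene, a SOX match was found at 1 of the 3 Lhx6 starts and 1 of the 6 Sox6 starts, a MAF match at 2 and an ACGTG at 1 of the 6 Sox6 starts, and an ACGTG at the single Npas3 start. Prox1 (2 starts), Npas1 (1) and Satb1 (5) had none, and TAATTA was at 0 of the 20. The windows below are shown because Lhx6 and Sox6 were high in the same groups of nuclei, in which Prox1 and Npas1 were low (Npas1 in Pvalb nuclei). For Lhx6 and Sox6, windows with matches were chosen; the other starts, including the most upstream Lhx6 start, are not shown. All 5 are read 5′ to 3′ along the minus strand of the gene, and capitals mark the motifs found.
Lhx6, chr2:36104011-36104310: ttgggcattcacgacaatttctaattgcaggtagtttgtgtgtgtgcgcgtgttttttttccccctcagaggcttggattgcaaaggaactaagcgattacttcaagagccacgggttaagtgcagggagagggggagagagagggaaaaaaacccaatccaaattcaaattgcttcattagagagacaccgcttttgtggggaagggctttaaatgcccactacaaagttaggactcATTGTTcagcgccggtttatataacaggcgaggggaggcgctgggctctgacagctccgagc
Sox6, chr7:115824661-115824960: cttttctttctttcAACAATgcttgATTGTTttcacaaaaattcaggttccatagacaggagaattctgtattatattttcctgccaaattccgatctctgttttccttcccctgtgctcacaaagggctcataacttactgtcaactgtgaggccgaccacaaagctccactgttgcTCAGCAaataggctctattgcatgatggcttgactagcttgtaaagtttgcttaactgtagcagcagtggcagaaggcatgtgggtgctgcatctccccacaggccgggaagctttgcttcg
Sox6, chr7:116038695-116038994: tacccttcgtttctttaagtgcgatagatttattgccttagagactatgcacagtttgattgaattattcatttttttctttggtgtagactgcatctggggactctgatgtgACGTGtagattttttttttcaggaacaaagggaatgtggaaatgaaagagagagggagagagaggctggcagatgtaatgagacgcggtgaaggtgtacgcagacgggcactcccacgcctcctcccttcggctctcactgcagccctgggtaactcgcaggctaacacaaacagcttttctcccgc
Prox1, chr1:190170778-190171077: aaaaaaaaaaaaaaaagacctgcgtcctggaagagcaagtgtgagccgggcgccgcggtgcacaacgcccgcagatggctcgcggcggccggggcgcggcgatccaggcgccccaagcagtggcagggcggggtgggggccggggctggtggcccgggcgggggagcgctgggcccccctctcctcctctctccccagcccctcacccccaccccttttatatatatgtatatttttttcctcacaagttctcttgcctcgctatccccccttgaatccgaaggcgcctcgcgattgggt
Npas1, chr7:16476731-16477030: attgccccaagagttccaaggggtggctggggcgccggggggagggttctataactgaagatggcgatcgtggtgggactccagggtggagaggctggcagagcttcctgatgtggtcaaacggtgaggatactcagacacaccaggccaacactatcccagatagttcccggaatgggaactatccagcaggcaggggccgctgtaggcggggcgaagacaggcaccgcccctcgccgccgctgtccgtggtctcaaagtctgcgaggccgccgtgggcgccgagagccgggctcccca
The Lhx6 window held 1 SOX match in the reverse sense, the first Sox6 window held 2 SOX matches and 1 MAF match, and the second, farther upstream, held 1 ACGTG. In the Prox1 and Npas1 windows none of the 4 was found, which says only that these letters are not in these windows.

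Libraries held 69503598 to 98132783 UMIs (unique molecular identifiers, each 1 counted RNA molecule), and 78168 nuclei were kept. Between 27 and 63 barcodes were shared by any 2 libraries (0.295% to 0.474%). A nucleus with at least 2 UMIs of Gad1 and Gad2 together is called a Gad nucleus here. There were 5953 (7.62%), 635 to 974 per library, with a median of 7929 UMIs. By a rule of at least 2 UMIs and 75% of the UMIs of the 4 markers, 167 were Pvalb nuclei (12 to 32 per library), 227 Sst nuclei (9 to 43), 436 Vip nuclei (44 to 70) and 1561 Reln nuclei (153 to 283). Another 574 held mixed markers, and 2988 (50.2%) had too few marker UMIs. Counted apart from this division, 534 Gad nuclei held at least 2 UMIs each of Sst and Reln. They overlap the groups above, since 185 of the Reln nuclei held at least 2 Sst UMIs. The group called Sst nuclei is thus only a part of the nuclei with Sst UMIs. Chodl and Npy, other genes of the Sst type, were at 22.9 and 614 CPM in Sst nuclei. In nuclei with Sst and Reln they were at 0.602 and 182 CPM. Grin3a and Elfn1 went the other way, at 778 and 105 CPM in Sst nuclei and 1210 and 158 CPM in nuclei with Sst and Reln. Among the 4 groups, other genes of each type were highest in their own group for 3 of 4 Pvalb checks (Pthlh was highest in Vip), 3 of 4 Sst checks (Elfn1 in Vip), 6 of 6 Vip checks and 4 of 6 Reln checks (Cxcl14 and Adarb2 in Vip). This count asks for no margin. Id2, counted for Reln, was at 11.0 ± 3.27 CPM there and 10.5 ± 8.93 in Vip nuclei. Among Gad nuclei, 10.0% held at least 2 UMIs of the excitatory gene Slc17a7, 990 (16.6%) passed the marker rule for excitatory neurons and 7.14% passed the marker rule for striatal projection neurons. Summed striatal markers were 764 to 2261 CPM in Gad nuclei and 588 to 2132 CPM in excitatory-like nuclei. Leaving out the Gad nuclei with at least 2 Slc17a7 UMIs changed no call of the 9 genes between the 4 groups. The part of the striatal and other marker-positive nuclei in the levels below was not tested. CPM is the UMIs of a gene per 1000000 UMIs, after summing all nuclei of a class in 1 library, and "±" is the SD over libraries.

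The MGE factors Lhx6, Sox6 and Satb1 were high in Pvalb and Sst nuclei, intermediate in Reln nuclei and low in Vip nuclei. The CGE factor Prox1 had the opposite order, and Npas1 and Nr2f2 were lowest in Pvalb nuclei. Maf was not called between the 2 pairs of groups, and Npas3 was lowest in Pvalb nuclei among the 4 groups. The Pvalb/Sst pair was set against the Vip/Reln pair; this compares groups of nuclei set by markers and not cells of known origin, since Reln nuclei also held MGE factors. In edgeR's quasi-likelihood test with library as a block, 8 of the 9 genes were called at an adjusted p under 0.05, 3 higher and 5 lower, where 34.4% of the 5612 genes tested were called. Of all genes tested, 16.6% were called higher and 17.9% lower. All 9 passed the filter on low counts, which a gene could do through the groups in which it was high. With Vip nuclei alone set against Pvalb and Sst, a comparison added after the values were seen, the log2 differences were 4.52 for Lhx6, 4.32 for Sox6, 2.18 for Satb1, -7.20 for Prox1 and -1.08 for Dlx1, against 2.58, 2.69, 1.36, -5.99 and -0.60 with Reln nuclei included. When 1 marker UMI was enough to place a nucleus, the differences between the pairs were smaller, at 1.60 for Lhx6, 1.63 for Sox6, 1.05 for Satb1, -3.97 for Prox1 and -0.35 for Dlx1, and Dlx1 was no longer called.

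**Figure D1:**
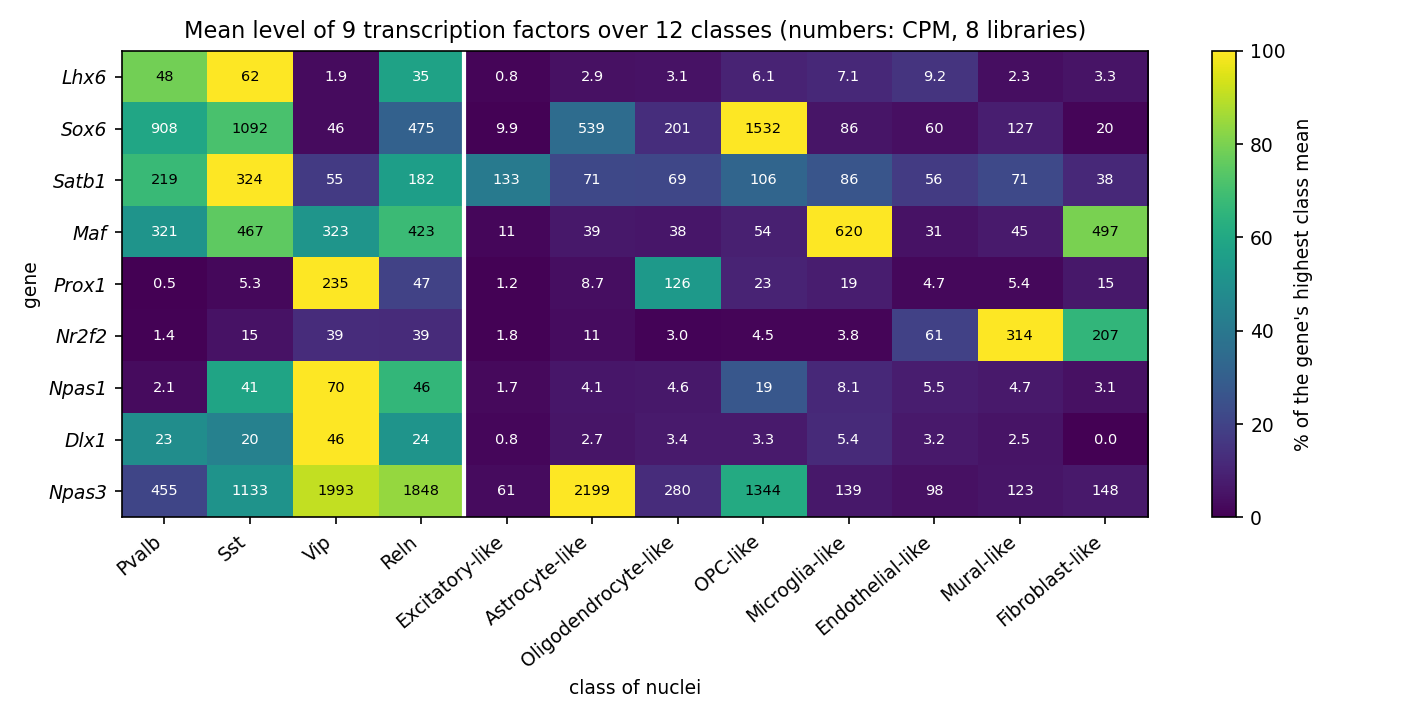
Mean CPM of the 9 genes (rows) in 4 interneuron groups and 8 other classes (columns), over 8 libraries. Colour gives the level as a percentage of the gene's own highest class, so rows are not comparable in level; Prox1 peaks in Vip nuclei, and Sox6, Maf, Nr2f2 and Npas3 peak in a class outside interneurons.

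Lhx6, the LIM homeodomain factor that MGE cells keep after leaving the cell cycle, was present in all 8 libraries of Sst nuclei, at 92.2, 71.0, 38.8 and 69.6 CPM in WT and 56.7, 69.3, 43.1 and 51.9 in Chd8het (libraries are always listed as males 1 and 2, then females 1 and 2). In Pvalb nuclei it was at 64.5, 8.07, 58.2 and 57.7 CPM in WT and 65.7, 57.0, 27.6 and 48.6 in Chd8het. The value of 8.07 rests on 1 UMI in 12 nuclei. Reln nuclei were tightly grouped, from 29.96 to 39.6 CPM. Vip nuclei had 0 in 4 of 8 libraries and 6.98 CPM at most. Sst (61.6 ± 17.4), Pvalb (48.4 ± 20.3) and Reln (35.4 ± 3.39) overlapped, and neighbours in this order did not differ in an exact sign-flip test (p = 0.188 and 0.148, two-sided, n = 8). Lhx6 was lower in Vip than in Reln nuclei by 3.89 (log2 difference -3.89, SE 0.36, edgeR adjusted p = 6.32e-13, 8 of 8 libraries). From 114 UMIs in Sst and 7 in Vip nuclei, the ratio was 29.0 (exact 95% interval 13.6 to 73.7, counting error only). Taken as pairs, Pvalb and Sst exceeded Vip and Reln by 2.58 (SE 0.23, edgeR adjusted p = 1.47e-13).

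Sox6, an SRY-related factor that acts after Lhx6, followed the same order of the 4 groups. Pvalb nuclei had 878, 1066, 855 and 702 CPM in WT and 940, 820, 880 and 1124 in Chd8het. Sst nuclei had 1038, 1633, 1238 and 921 in WT and 740, 1205, 863 and 1097 in Chd8het. Vip nuclei lay between 3.57 and 110 CPM and Reln nuclei between 398 and 562, so that Vip, Reln and Pvalb nuclei did not overlap. The difference between the pairs was 2.69 on the log2 scale (SE 0.13, edgeR adjusted p = 5.05e-15, 8 of 8 libraries), and Vip nuclei were below Reln nuclei (-3.26, SE 0.21, edgeR adjusted p = 1.11e-12). Pvalb and Sst nuclei were not told apart (log2 difference -0.23, SE 0.16, edgeR adjusted p = 0.305), except that Sox6 was lower in Pvalb nuclei when the other 3 markers had to be at 0 UMIs (-0.46, edgeR adjusted p = 0.0144).

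Satb1 is a chromatin organizer that promotes maturation of Sst cells. Among the 4 groups it was highest in Sst nuclei, at 303, 398, 203 and 321 CPM in WT and 400, 185, 337 and 445 in Chd8het. The part of the Reln nuclei with at least 2 Sst UMIs was at 419 ± 71.6 CPM. Pvalb nuclei had 170 to 291 CPM, Reln nuclei 162 to 193 and Vip nuclei 35.7 to 90.7. Vip nuclei did not overlap the other 3 groups. Satb1 was higher in the Pvalb/Sst pair by 1.36 (SE 0.09, edgeR adjusted p = 2.17e-17, 8 of 8 libraries). It was lower in Pvalb than in Sst nuclei by 0.51 on the log2 scale (log2 difference -0.51, SE 0.12, edgeR adjusted p = 0.000998, lower in 6 of 8 libraries; of all genes 32.7% were called here, 16.2% higher and 16.5% lower). That call was lost when the other 3 markers had to be at 0 UMIs (-0.34, edgeR adjusted p = 0.109), when 1 marker UMI was enough (-0.17, edgeR adjusted p = 0.145) and at 5 Gad UMIs (-0.44, edgeR adjusted p = 0.116). It was also lost with Reln nuclei limited to those without an Sst UMI and Sst nuclei to those without a Reln UMI, an alternative added after the data were seen (-0.34, edgeR adjusted p = 0.0820).

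Maf, a bZIP factor with a role in MGE interneuron fate, was present in all groups. It had 242 to 412 CPM in Pvalb, 326 to 582 in Sst, 281 to 377 in Vip and 367 to 550 in Reln nuclei. These ranges overlapped, although Reln was above Vip nuclei in 8 of 8 libraries. The 2 pairs differed by 0.03 (SE 0.07, edgeR adjusted p = 0.774), and with Vip alone on the second side by 0.19 (edgeR adjusted p = 0.0881). Maf was lower in Pvalb than in Sst nuclei (-0.53, SE 0.11, edgeR adjusted p = 6.02e-05) and lower in Vip than in Reln nuclei (-0.31, SE 0.09, edgeR adjusted p = 0.00635; 27.4% of all genes were called here, 14.0% higher and 13.4% lower). Both calls were lost when the other 3 markers had to be at 0 UMIs (adjusted p = 0.454 and 0.668 in edgeR) and with the exclusive Reln and Sst nuclei just described (-0.17 and -0.06, adjusted p = 0.408 and 0.769 in edgeR), and the second also at 5 Gad UMIs (adjusted p = 0.211 in edgeR).

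Prox1, the homeodomain factor of CGE cells, had 175, 226, 250 and 284 CPM in WT Vip nuclei and 203, 272, 229 and 239 in Chd8het. Reln nuclei had 35.6 to 59.8 CPM. Vip and Reln nuclei did not overlap, and Vip was higher by 2.41 on the log2 scale (SE 0.12, edgeR adjusted p = 5.22e-21, 8 of 8 libraries). Pvalb nuclei gave 1 UMI in all and Sst nuclei 7 UMIs in 3 libraries, against 774 in Vip nuclei. The ratio of Vip to Pvalb was 465 (exact 95% interval 83.1 to 18372) and of Vip to Sst 62.1 (30 to 155). Between Pvalb and Sst nuclei Prox1 was not called (log2 difference -2.52, SE 1.23, edgeR adjusted p = 0.115), but it was with doublets kept (-4.03, edgeR adjusted p = 0.00713) and with 1 marker UMI (-1.98, edgeR adjusted p = 0.000249). Without 1 library this difference ran from -4.69 to -1.32. After thinning each nucleus to 3000 UMIs, Prox1 was detected in 49.6% ± 8.05 of Vip nuclei in 0 of 166 Pvalb nuclei, which allows a share of up to 1.81%, and in 0 of 208 Sst nuclei, which allows up to 1.44%. These limits hold for nuclei with a UMI at 3000 UMIs. Without thinning, Prox1 was in 0.481% of Pvalb, 1.958% of Sst and 1.00% of excitatory-like nuclei. The thinned share in excitatory-like nuclei, which should lack it, was 0.413% (median 8792 UMIs, against 6327.5 in Vip and 10912 in Pvalb nuclei). In Vip nuclei 71.5% had a Prox1 UMI without thinning.

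Nr2f2, the nuclear receptor COUP-TFII, was at 39.4 ± 20.8 CPM in Vip and 38.7 ± 12.4 in Reln nuclei, which did not differ (exact sign-flip p = 0.945, n = 8). Its Vip libraries ranged from 7.37 to 78.5 and its Reln libraries from 22.5 to 57.4. Sst nuclei had 0 to 41.6 CPM and Pvalb nuclei 3 UMIs in all. Nr2f2 was lower in the Pvalb/Sst pair (log2 difference -2.99, SE 0.35, edgeR adjusted p = 5.5e-09, 8 of 8 libraries). From 28 against 3 UMIs, the ratio of Sst to Pvalb was 9.97 (exact 95% interval 3.08 to 51.3). For Npas1, Vip nuclei had 46.5 to 107 CPM, Reln nuclei 34.5 to 55.0 and Sst nuclei 18.5 to 81.5, and Pvalb nuclei held 4 UMIs in 3 libraries. Sst and Reln nuclei did not differ in Npas1 (exact sign-flip p = 0.508, n = 8). Npas1 was lower in Pvalb than in Sst nuclei in 8 of 8 libraries, with 4 against 74 UMIs and a ratio of 19.8 (exact 95% interval 7.40 to 74.5; log2 difference -4.22, SE 0.50, edgeR adjusted p = 1.28e-09). It was higher in Vip than in Reln nuclei by 0.61 (SE 0.15, edgeR adjusted p = 0.000829, 8 of 8 libraries).

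Dlx1, a homeodomain factor of all interneurons, had 46.8, 56.0, 46.4 and 25.8 CPM in WT Vip nuclei and 52.3, 44.6, 44.4 and 51.2 in Chd8het. Reln nuclei had 16.8 to 32.1 CPM, and Pvalb (22.5 ± 16.9) and Sst (20.2 ± 12.6) had similar means on 1 to 12 UMIs per library. Vip exceeded Reln by 0.97 (SE 0.20, edgeR adjusted p = 0.000152, 7 of 8 libraries). The Pvalb/Sst pair was lower than the Vip/Reln pair by 0.60 (log2 difference -0.60, SE 0.21, edgeR adjusted p = 0.0252). That call was lost with doublets kept (-0.48, edgeR adjusted p = 0.0838), with 1 marker UMI (-0.35, edgeR adjusted p = 0.0740), with the other 3 markers at 0 (-0.49, edgeR adjusted p = 0.126) and with the exclusive Reln and Sst nuclei (-0.55, edgeR adjusted p = 0.0696). It was also lost when 1 library was left out, for 5 of the 8: WT male 1, WT male 2, WT female 1, Chd8het male 1 and Chd8het female 1. The log2 differences without them were -0.56, -0.54, -0.54, -0.58 and -0.43 (edgeR adjusted p = 0.0516, 0.0642, 0.0739, 0.0583 and 0.140).

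Npas3 was detected in 64.6% ± 1.91 of all Gad nuclei at 3000 UMIs. It had 371 to 735 CPM in Pvalb, 508 to 1491 in Sst, 1628 to 2470 in Vip and 1476 to 2119 in Reln nuclei. Vip and Reln nuclei did not differ (log2 difference 0.17, SE 0.11, edgeR adjusted p = 0.295), and Pvalb nuclei were below Sst nuclei in 8 of 8 libraries (-1.32, SE 0.13, edgeR adjusted p = 2.46e-10). Between the pairs the difference was -1.48 (SE 0.09, edgeR adjusted p = 1.49e-16). The 185 Reln nuclei with at least 2 Sst UMIs, which count on the Vip/Reln side, held Npas3 at 2256 ± 317 CPM. The Sst group was at 1133 ± 302 CPM.

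**Figure D2:**
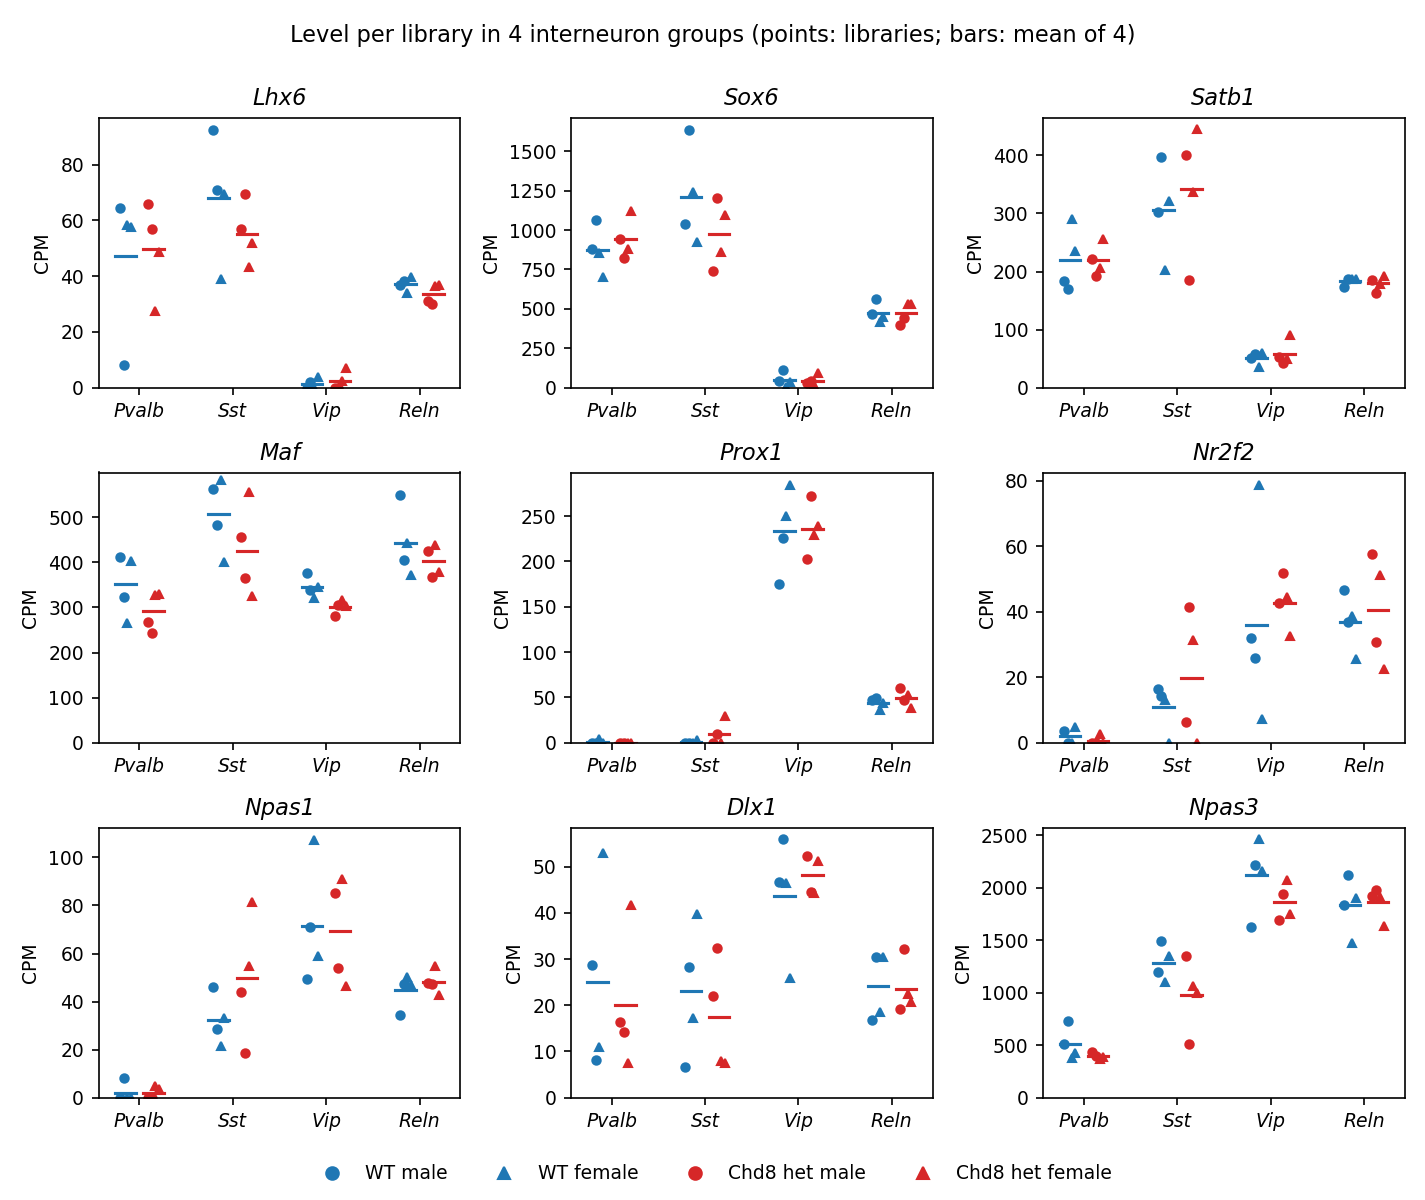
CPM of each of the 9 genes in the Pvalb, Sst, Vip and Reln nuclei of each library (points; circles male, triangles female, blue WT, red Chd8het; bars are the mean of 4). Lhx6, Sox6 and Satb1 are low in Vip nuclei of every library, and Prox1 is at most 284 CPM in Vip nuclei and near 0 in Pvalb nuclei. Maf in Vip nuclei is at 321 to 377 CPM in WT and 281 to 315 CPM in Chd8het. That difference was not called (edgeR unadjusted p = 0.0862), and its log2 change was 0.11 at 5 Gad UMIs. None of the members tested was called between genotypes in these groups.

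In single nuclei the factors occurred in combinations. These shares cover nuclei of at least 3000 UMIs, which left out 374 of the 5953 Gad nuclei (1 Pvalb and 19 Sst nuclei), 1987 of 40304 excitatory-like nuclei and 1514 of 3049 OPC-like nuclei. Each nucleus was thinned in 1 random draw. At 3000 UMIs, 91.2% ± 7.28 of Pvalb nuclei and 80.4% ± 5.19 of Sst nuclei held UMIs of Lhx6, Sox6 or Satb1 and none of Prox1, Nr2f2 or Npas1. Both sets were held by 29 of the 208 Sst nuclei (14.2% ± 6.05). In Vip nuclei 54.8% ± 4.85 held only the second set, 9.25% only the first, 6.89% both and 29.0% neither. Reln nuclei were divided: 36.1% ± 3.59 held only the first set, 19.3% ± 2.73 only the second, 9.97% both and 34.5% neither. The 2 sets differ in level there, so their shares cannot be weighed against each other. Sox6 was at 475, Satb1 at 182 and Lhx6 at 35.4 CPM, but Prox1 at 46.7, Npas1 at 46.5 and Nr2f2 at 38.7. Adarb2, a check gene of Vip and Reln cells, was at 6092 CPM in Reln, 15030 in Vip and 27.2 in Sst nuclei. Nuclei with at least 2 UMIs each of Sst and Reln held the first set alone in 71.3% and both sets in 23.6%. Some of them are also among the Reln nuclei. The Satb1 share bears on these figures, since 30.7% of excitatory-like nuclei held a Satb1 UMI at 3000 UMIs and 32.1% fell into the first set. In OPC-like nuclei, where Sox6 is high, 77.5% fell into the first set.

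By genotype, the 4 combination states in the 4 groups (16 shares) were compared by an exact two-sided permutation test over libraries, added after the values were seen, and none passed after adjustment. Sst nuclei with both sets made up 9.44% ± 2.19 in WT (6.90% to 11.4%) and 19.0% ± 4.48 in Chd8het (14.7% to 25.0%). The genotypes did not overlap, and this difference of 9.53 percentage points had the smallest p (exact permutation p = 0.0286, the smallest possible with 4 against 4, adjusted over 16 shares p = 0.457). It rests on 29 of 208 Sst nuclei in all and on 1 random draw. In the 531 nuclei with Sst and Reln together, not among the 16 shares, both sets went the other way. They were held by 24.9% ± 3.88 in WT and 22.2% ± 6.73 in Chd8het. The first set alone was held by 84.3% ± 4.41 of WT and 76.6% ± 1.84 of Chd8het Sst nuclei (exact permutation p = 0.0571). In Pvalb nuclei that share was 93.4% ± 6.14 and 89.1% ± 8.57, and in Reln nuclei 36.2% ± 4.40 and 36.0% ± 3.28. The second set alone was held by 56.5% ± 4.31 of WT and 53.2% ± 5.41 of Chd8het Vip nuclei, and by 17.9% ± 0.722 and 20.8% ± 3.35 of Reln nuclei.

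**Figure D3:**
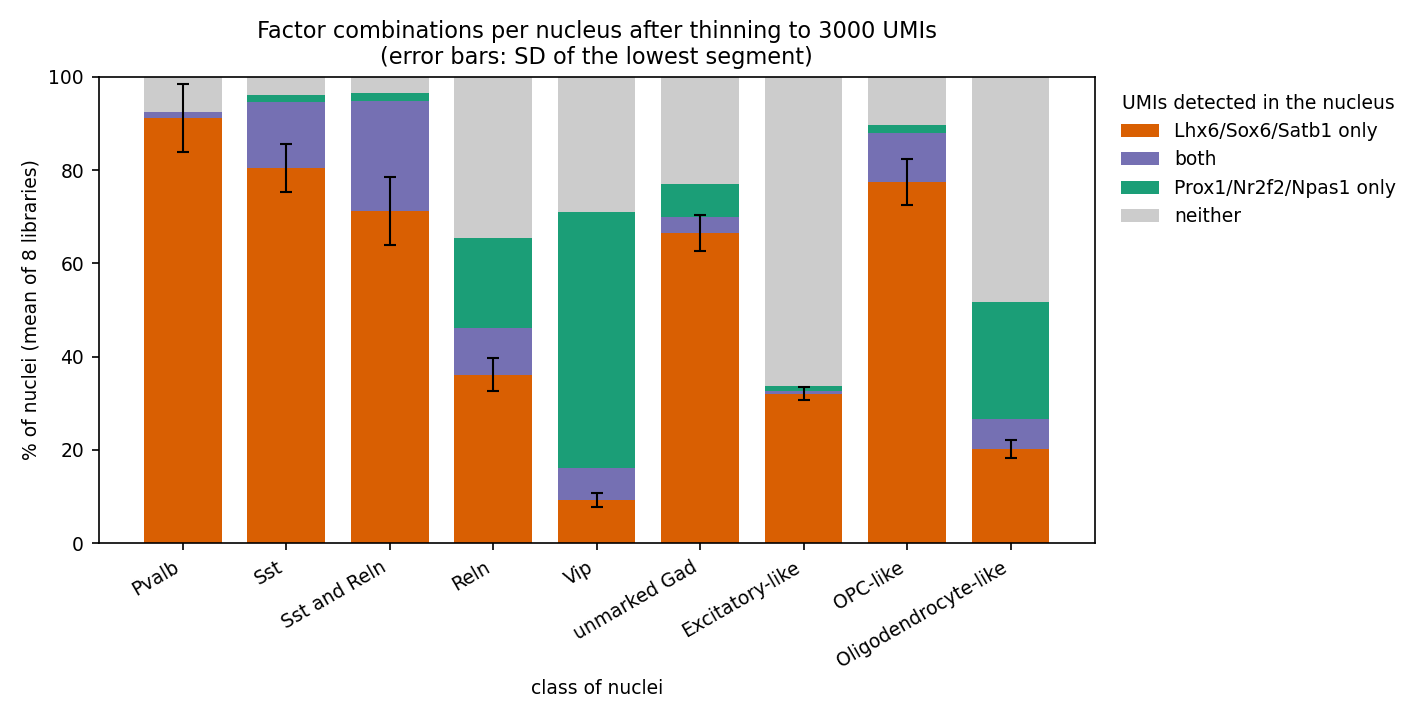
Percentage of nuclei (mean of 8 libraries) by the factors with at least 1 UMI after thinning to 3000 UMIs, for 9 classes; error bars are the SD of the lowest segment. The Lhx6/Sox6/Satb1 set alone makes up 91.2% of Pvalb, 36.1% of Reln and 9.25% of Vip nuclei. The class with Sst and Reln shares nuclei with the Reln class.

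Lhx6 and Sox6 were found together in 12.5% ± 4.48 of Pvalb and Sst nuclei and 5.68% ± 1.58 of Vip and Reln nuclei, higher in the former in 8 of 8 libraries by 6.83 percentage points. At 2000 UMIs the difference was 1.00 in 1 random draw and 4.54 as the mean over all draws. The shares of the single genes differ in the same way: Lhx6 was in 13.4% of Pvalb, 16.2% of Sst, 8.39% of Reln and 0.208% of Vip nuclei, and Sox6 in 87.9%, 80.2%, 37.7% and 6.76%. Within Pvalb nuclei the pair occurred in 11.0%, where the product of the 2 shares was 11.6%, and within Sst nuclei in 14.2% against 13.6%, so the joint share was close to the product in both. Prox1 with Npas1 was found in 3.22% ± 1.28 of Vip and Reln nuclei and in 0 of 374 Pvalb and Sst nuclei, where Prox1 itself was at 0, so that this value restates the Prox1 level. Lhx6 with Prox1 was rare on both sides, at 0 and 0.111% of nuclei. Over all Gad nuclei that pair occurred in 5 of 5579 nuclei, 0.0985% per library on average, where the product of the 2 shares was 1.12%; the observed share was below the product in 8 of 8 libraries.

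Within Reln nuclei, Lhx6, Sox6 and Satb1 seldom shared a nucleus with Prox1. Lhx6 with Prox1 occurred in 0.139% of Reln nuclei against a product of 0.996%, Sox6 with Prox1 in 0.482% against 4.49% and Satb1 with Prox1 in 0.556% against 3.38%, each below the product in 8 of 8 libraries. Lhx6 with Sox6 occurred in 7.24% against 3.19%, above it in 8 of 8. Prox1 with Nr2f2 occurred in 2.24% against 1.37%, above in 7 of 8, and Sox6 with Nr2f2 in 1.68% against 4.16%, below in 8 of 8. Npas1 with Sox6 occurred in 5.34% against 4.05% (above in 6 of 8) and with Prox1 in 0.971% against 1.26% (above in 3 of 8). Over all Gad nuclei the order was the reverse: Npas1 with Sox6 was at 3.24% against 4.18% (above in 0 of 8) and with Prox1 at 1.56% against 0.834% (above in 7 of 8). These products are descriptions with no test.

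An Sst UMI was present in 422 of the 1561 Reln nuclei (26.9% ± 2.35), and at least 2 in 185 (11.6% ± 2.37). In excitatory-like nuclei, which should lack Sst, 10.5% ± 3.41 held an Sst UMI (median 8792 UMIs, against 8424 in Reln nuclei). The Reln share is lowered by the class rule, which leaves out nuclei with few Reln UMIs once they hold an Sst UMI. At least 2 were held by 1.06% ± 0.547 of excitatory-like nuclei. Some Reln nuclei with 1 Sst UMI may thus hold background RNA, and which ones cannot be told apart. A division of Reln nuclei by that UMI, chosen after the values were seen and limited to nuclei of at least 3000 UMIs, gave 415 nuclei with and 1108 without an Sst UMI. Lhx6 was at 63.2 ± 11.1 CPM with an Sst UMI (46.3 to 73.3) and 22.9 ± 4.44 without (15.7 to 27.8), and Sox6 at 833 ± 162 and 314 ± 61.0. Neither pair of ranges overlapped. Prox1 went the other way, with 15.1 ± 7.94 and 60.5 ± 10.1 CPM, also with no overlap. The 185 nuclei with at least 2 Sst UMIs, added for the background, had 76.2 ± 13.8 CPM of Lhx6 (51.4 to 100.1), 1052 ± 197 of Sox6 (799 to 1389) and 8.00 ± 13.6 of Prox1 (0 to 37.9); none of these ranges overlapped that of nuclei without an Sst UMI. Npas1 was at 64.3 CPM with an Sst UMI and 38.8 without, and Nr2f2 at 25.1 and 45.1. Satb1 was at 343 ± 42.4 with and 110 ± 20.1 without, and Maf at 571 ± 84.3 and 357 ± 55.4. Npas3 was at 2216 ± 232 and 1684 ± 213, and Dlx1 at 20.6 and 25.3. With at least 2 Sst UMIs, Satb1 was at 419 ± 71.6, Maf at 618 ± 135 and Npas3 at 2256 ± 317 CPM. Npas3 was thus higher in these nuclei than in the Sst group (1133 ± 302). Reln nuclei with no Sst UMI still held Sox6 in 25.1% of nuclei at 3000 UMIs.

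Against excitatory-like nuclei, all 9 genes were higher in Gad nuclei (4423 of 14957 genes, 29.6%, were called higher), in 8 of 8 libraries. The log2 differences were 5.72 for Sox6, 5.42 for Lhx6, 4.89 for Dlx1, 4.87 for Prox1, 4.85 for Maf, 4.18 for Npas3, 3.998 for Npas1 and 3.33 for Nr2f2, and for Satb1 only 0.40 (SE 0.08, edgeR adjusted p = 6.92e-06). Satb1 was at 133 ± 11.4 CPM in excitatory-like nuclei and 54.9 ± 16.4 in Vip nuclei. For 4 members, Sox6, Npas3, Nr2f2 and Maf, the highest class lay outside interneurons. Sox6 was at 1532 ± 193 CPM in OPC-like nuclei and 1092 ± 276 in Sst nuclei, the next class (exact sign-flip p = 0.0234, 7 of 8 libraries, n = 8), and Gad nuclei were lower than OPC-like nuclei (-1.27, SE 0.13, edgeR adjusted p = 3.79e-13; 24.6% of genes were called lower). Sox6 was not called between Gad and astrocyte-like nuclei (0.26, SE 0.13, edgeR adjusted p = 0.0727), but it was higher in Gad nuclei without the Slc17a7 nuclei (0.36, edgeR adjusted p = 0.0102) and with doublets kept (0.30, edgeR adjusted p = 0.00962). Npas3 was at 2199 ± 281 CPM in astrocyte-like nuclei, next to Vip nuclei (1993 ± 292, exact sign-flip p = 0.102, n = 8), and Gad nuclei were lower by 0.76 (log2 difference -0.76, edgeR adjusted p = 1.15e-06; 33.1% called lower).

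Nr2f2 was highest in mural-like nuclei (314 ± 60.3 CPM), a class too small for the fit, then fibroblast-like (207 ± 56.0) and endothelial-like nuclei (60.8 ± 19.4). Gad nuclei were lower than fibroblast-like nuclei (-2.93, edgeR adjusted p = 1.52e-13; 47.0% called in either direction) and endothelial-like nuclei (-1.26, edgeR adjusted p = 0.00442; 21.5% called lower). Without WT female 2 the endothelial comparison was at -1.03 (edgeR adjusted p = 0.0519). Maf was at 620 ± 154 CPM in microglia-like and 497 ± 88.4 in fibroblast-like nuclei, and Gad nuclei were lower than microglia-like nuclei (-0.36, edgeR adjusted p = 0.000601; 33.0% called lower). Prox1 was at 126 ± 14.6 CPM in oligodendrocyte-like nuclei, below Vip nuclei in 8 of 8 libraries with no overlap but above Gad nuclei as a whole (Gad minus oligodendrocyte-like -1.62, edgeR adjusted p = 5.16e-18; 33.1% called lower). Dlx1 had no UMI in fibroblast-like nuclei, so that Gad nuclei were at least 8.27-fold higher, with a floor of 3 UMIs over the 8 libraries. Lhx6, Npas1 and Dlx1 were below 20 CPM on average in all 8 of the other classes.

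Chd8het and WT were compared in 10 classes with sex in the model, and in that model no gene was called in any (0% of the genes tested in each; at an unadjusted p under 0.05, 2.06% of 14775 genes in all Gad nuclei). Pairs in the genotype results are libraries of like sex and replicate number. They are assumed, since the labels do not name the litter pairs, and each also shares its index type. With these 4 assumed pairs as a block, edgeR called 68 genes in microglia-like, 13 in Reln, 4 in Pvalb and 2 in Sst nuclei, of which 1 was a member (Maf in microglia-like nuclei). With sex and index type it called 37 in microglia-like, 3 in Pvalb, 3 in Vip and 1 in excitatory-like nuclei. DESeq2 called 3 genes each in excitatory-like and microglia-like nuclei, and none in the others. In all Gad nuclei Lhx6 was at 42.7, 36.9, 36.6 and 44.6 CPM in WT and 45.9, 38.3, 41.0 and 37.3 in Chd8het. Prox1 was at 36.2, 47.5, 35.0 and 42.9 in WT and 34.5, 40.6, 40.6 and 42.1 in Chd8het. Dlx1 was at 19.3, 32.6, 21.0 and 31.3 in WT and 18.5, 30.4, 20.3 and 28.7 in Chd8het, lower in Chd8het in each of 4 same-sex, same-number pairs. For each of the 3 genes the genotypes overlapped.

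The log2 changes in all Gad nuclei were -0.03 (SE 0.11) for Lhx6, -0.06 (0.09) for Sox6, -0.06 (0.09) for Satb1, -0.15 (0.14) for Maf, -0.08 (0.13) for Prox1, 0.06 (0.18) for Nr2f2, -0.04 (0.14) for Npas1, -0.13 (0.24) for Dlx1 and -0.13 (0.11) for Npas3. Of the 9 changes 8 were below 0, with a median of -0.0645, and the median of all genes was 0.00184. Without 1 library, Maf ran from -0.24 to -0.021 and Satb1 from -0.12 to -0.0055. The smallest unadjusted p was that of Npas3 (0.256 in edgeR), whose change was -0.02 without WT male 2, with 41.8 CPM between single-indexed and -191 CPM between dual-indexed libraries. These values do not show that the levels are equal; in simulated data of the same size, 71 of 100 genes with a change of 1 on the log2 scale were recovered.

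**Figure D4:**
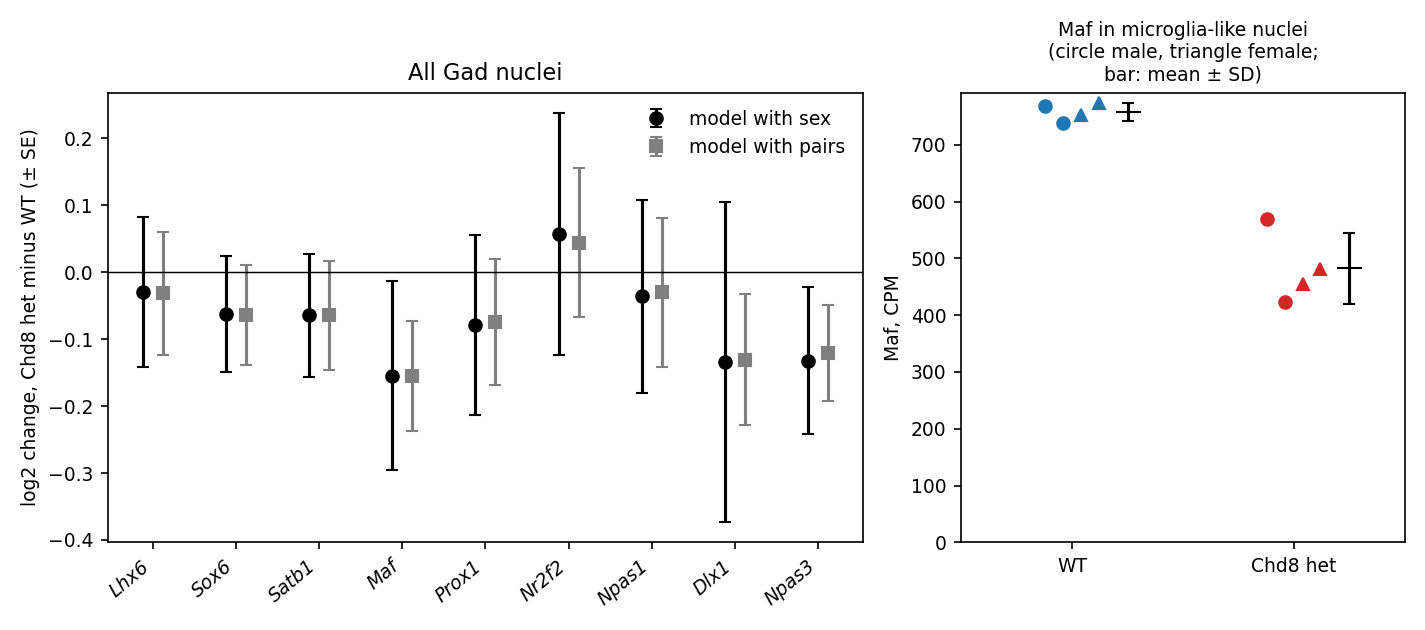
Left, log2 change of Chd8het against WT in all Gad nuclei (± SE, 8 libraries) in the model with sex (black) and with assumed pairs of like sex and replicate number (grey). Right, Maf CPM in microglia-like nuclei per library (circles male, triangles female; bars mean ± SD); the 4 WT values are 739 to 774 and the 4 Chd8het values 423 to 570.

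In the 4 interneuron groups the member with the smallest p was Npas3 in Pvalb nuclei (-0.33, SE 0.17, edgeR unadjusted p = 0.0701, lower in 4 of 4 pairs) and in Sst nuclei (-0.38, SE 0.24, edgeR unadjusted p = 0.129), and Maf in Vip nuclei (-0.26, SE 0.14, unadjusted p = 0.0862, lower in 4 of 4 pairs, 321 to 377 CPM in WT and 281 to 315 in Chd8het) and in Reln nuclei (-0.16, SE 0.12, unadjusted p = 0.198). None was called. In Sst nuclei Npas3 ran from -0.70 without Chd8het male 1 to -0.15 without Chd8het male 2, and the difference was 55.8 CPM between single-indexed and -665 CPM between dual-indexed libraries. Npas3 in Pvalb nuclei was at -0.18 without WT male 2, and Maf in Reln nuclei at -0.06 without WT male 1. Maf in Vip nuclei turned to 0.11 at 5 Gad UMIs. Tested were 5 members in Pvalb, 6 in Sst, 8 in Vip and 9 in Reln nuclei; the others did not pass the filter on low counts. The shares of the groups among Gad nuclei did not pass a test between genotypes: Pvalb 2.88% ± 1.48 in WT and 2.98% ± 1.33 in Chd8het, Sst 3.81% ± 2.27 and 3.97% ± 2.00, Vip 7.24% ± 0.506 and 7.45% ± 1.32, and Reln 27.3% ± 4.77 and 25.0% ± 4.81 (exact permutation p = 0.514 for Reln, adjusted 0.914 for all 4; the smallest p possible is 0.0286). Without 1 library the Reln difference of -2.26 percentage points ran from -4.54 (without Chd8het female 2) to -0.294 (without WT male 2).

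In other classes the member with the smallest p was Nr2f2 in excitatory-like nuclei (0.95, SE 0.49, higher in 4 of 4 pairs) and astrocyte-like nuclei (0.68, SE 0.38), with unadjusted p of 0.0895 and 0.0995 in edgeR. It was Satb1 in oligodendrocyte-like nuclei (0.36, SE 0.14, higher in 4 of 4 pairs) and Maf in OPC-like nuclei (-0.50, SE 0.27), with unadjusted p of 0.0277 and 0.0853 in edgeR. None of the 4 was called. Without Chd8het male 2, Nr2f2 was at 0.23 in excitatory-like and 0.17 in astrocyte-like nuclei, and without WT female 2 at 1.26 and 0.95. In excitatory-like nuclei the difference was 0.308 CPM between single-indexed and 2.56 CPM between dual-indexed libraries. Maf in OPC-like nuclei ran from -0.24 without Chd8het male 2 to -0.72 without WT female 2. It was again Maf in microglia-like nuclei. There Maf was at 768, 739, 753 and 774 CPM in WT and 570, 423, 454 and 482 in Chd8het, on 388 to 753 UMIs per library. The genotypes did not overlap. The log2 change was -0.61 (SE 0.14, edgeR unadjusted p = 0.00086, adjusted p = 0.529), where 8.35% of 10609 genes had an unadjusted p under 0.05. With the 4 assumed pairs as a block, which are not known to be the litter pairs, Maf was called (-0.62, SE 0.12, edgeR adjusted p = 0.0298), 1 of 68 genes (0.641%). In edgeR it was also called with sex and index type (adjusted p = 0.0376) and with no filter on low counts (adjusted p = 0.0337). The difference was -248 CPM between single-indexed and -304 CPM between dual-indexed libraries.

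Other values moved with Maf in these nuclei. The 8 microglia markers summed to 6697 to 8612 CPM in WT and 4724 to 6969 in Chd8het, with 7 of the 8 lower in Chd8het and none called with pairs. The 8 excitatory markers summed to 1060 to 1308 CPM in WT and 1304 to 1914 in Chd8het, with 1 of the 8 called with pairs, and the 8 fibroblast markers to 14.3 to 32.2 and 36.5 to 51.2; no marker of either list was at 0 throughout. The classes held 315 to 552 nuclei per library in WT and 388 to 642 in Chd8het, with median UMIs of 1321.5 to 1672.5 and 1391 to 1696. Maf was detected in 58.9% to 67.0% of WT and 50.9% to 62.1% of Chd8het nuclei, without thinning. The part of these values in the Maf difference was not tested.

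Index type, which was balanced over the genotypes, went with the level of 4 members in all Gad nuclei (a comparison chosen after the values were seen; 23.8% of 14775 genes were called). Dlx1 was at 19.8 ± 1.10 CPM with a single index and 30.8 ± 1.67 with a dual index (log2 0.67, SE 0.10, edgeR adjusted p = 0.000556, n = 4 each), with no overlap. Maf was at 412 ± 52.9 and 328 ± 26.9 (-0.30, SE 0.09, edgeR adjusted p = 0.0288) and Npas3 at 1092 ± 26.7 and 1243 ± 145 (0.21, SE 0.07, edgeR adjusted p = 0.0421), also with no overlap. Prox1 was at 36.5 and 43.3 (0.27, SE 0.09, edgeR adjusted p = 0.0483), with overlap. Index type and replicate number coincide here and cannot be told apart.

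Of 20 other factors of the interneuron lineage, 9 could be tested among the 4 groups, and 5 were higher and 2 lower in the Pvalb/Sst pair (median 0.50, against -0.0009 for all genes), where 16.6% of all genes were called higher and 17.9% lower. Tox3, an HMG-box factor, was higher by 1.34, Tox2 by 1.17 and Ppargc1a, a coactivator prominent in Pvalb cells, by 0.97. Ppargc1a was at 401 CPM in Pvalb nuclei, 138 in Sst, 101 in Vip and 140 in Reln nuclei. Nr2f1, the relative of Nr2f2, was lower by 0.75 (log2 difference -0.75, edgeR adjusted p = 0.0018) and Zeb2 by 0.31 (-0.31). Under the alternatives Tox3 ran from 0.96 to 2.82, Tox2 from 0.85 to 2.24 and Zeb2 from -0.62 to -0.20. For these 3 the largest difference was with Vip nuclei alone against Pvalb and Sst, the comparison added after the values were seen. Between Pvalb and Sst nuclei 4 of the 9 were higher and 1 lower in Pvalb (16.2% and 16.5% of all genes), and between Vip and Reln nuclei 1 was higher and 4 lower in Vip (14.0% and 13.4% of all genes). By genotype in all Gad nuclei, 18 of the 20 were tested and none was called (1 at an unadjusted p under 0.05). That was Sp8, a factor of CGE progenitors, at 3.06 ± 0.265 CPM in WT and 1.53 ± 0.481 in Chd8het, without overlap (2.73 to 3.35 and 1.20 to 2.24) on 123 UMIs, with an adjusted p of 1 in edgeR.

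The genes whose mean log2 level over the 12 classes was most like that of a member are given with Pearson's r as a description; the 12 points share libraries, and 11425 genes above 20 CPM in at least 1 class were ranked. For Dlx1 these were Dlx6os1 (0.9795), Pnoc (0.963) and Akain1 (0.963), for Npas1 Elfn1 (0.9804), Gm2516 (0.956) and Gm45323 (0.945), and for Satb1 Kctd8 (0.972), AC171003.1 (0.962) and AC163685.1 (0.962). For Lhx6 they were Gm31218 (0.965), 1110004F10Rik (0.927) and Gm1604a (0.892), and for Nr2f2 Sik1 (0.896), Adgra2 (0.896) and Grb10 (0.882). For 4 members the list was led by a gene that overlaps the member in the annotation: Gm45025 for Sox6 (0.966), Gm15655 for Maf (0.968), Prox1os for Prox1 (0.943) and 1700060O08Rik for Npas3 (0.928). Whether counting used strand is not given in the sources used here, so reads of such partners cannot be told from those of the member. After these came Nxph1 (0.828) and Epb41l4a (0.824) for Sox6, Impact (0.890) and Dock11 (0.870) for Maf, Adarb2 (0.853) and Kif6 (0.810) for Prox1, and Gm45847 (0.902) and Ncoa1 (0.902) for Npas3.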

How the data were processed

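The authors deposited whole-number UMI counts per gene and barcode, from the 10x Genomics 3' v3 kit per the labels, already limited to called barcodes (97772 in 8 libraries). Per the submitters' processing notes, STAR 2.7.9a, STARsolo, Cell Ranger and the mm10 build were used, with roles not given. Counting strand and the use of intron reads are not given in the sources used here.

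Nuclei with at least 500 genes and at most 5% mitochondrial UMIs (82168) were kept, less 4000 doublets called by Scrublet in scanpy 1.11.5 at an expected 0.8% per 1000 nuclei. Gad nuclei and the 4 groups were set by UMI rules on Gad1, Gad2, Pvalb, Sst, Vip and Reln. Another class ("-like") needed at least 3 of its 8 listed markers and more than any other class; 11720 nuclei stayed without a class. A class entered the comparison of classes with at least 20 nuclei in each library, which mural-like nuclei lacked.

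Counts were summed per library and class and tested with edgeR 4.0.16 in R 4.3.3 (quasi-likelihood F test, filterByExpr at a minimum count of 10, TMM scaling, Benjamini-Hochberg over all genes tested, threshold 0.05), with library as a block between classes and with sex for genotype. Each library is 1 animal. Single values were compared with exact permutation or sign-flip tests, two-sided. Intervals are exact binomial at 95%, and these and the limits for a count of 0 (3 counts) cover counting error only. Alternatives covered scaling, DESeq2 1.42.0, filters, class rules, doublets, thinning, covariates and each library left out; the 5-UMI and Slc17a7 alternatives do not touch classes outside Gad nuclei. In simulated counts, the Pvalb and Sst comparison recovered 86 of 100 genes changed by 1 and 98 of 100 changed by 2 on the log2 scale, with 9 false of 193 calls among 5303 genes. The changed genes were drawn from those with a higher mean count over all 4 groups. Recovery at counts as low as those of Prox1, Nr2f2 and Npas1 in Pvalb nuclei was thus not examined. The genotype comparison in all Gad nuclei recovered 71 and 96 of 100, with 15 false of 182 calls among 14548 genes.

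Pairs were taken as libraries of like sex and replicate number: in all Gad nuclei their deviations from the genotype means correlated at 0.334 to 0.539, each above 0.1, and in microglia-like nuclei at 0.139 to 0.459. In Pvalb nuclei (0.0583 to 0.119) and Sst nuclei (0.0454 to 0.201) some pairs were lower. Of the 8 libraries, 5 correlated best with their own pair in all Gad nuclei and 6 in microglia-like nuclei (4 in each once means of sex and genotype were removed). With 2 libraries per sex and genotype, deviations from that mean mirror each other, so these 4 are not independent. The counts cannot tell litter pairs from shared sex or index type. The labels give litter-matched pairs without naming them. Each pair shares its sex and index type, so the pair block includes both; a fit with sex and index type alone is a separate alternative.

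The genes and lists were chosen with earlier results of these data known. Named are the 9 members, for each other class the member with the smallest genotype p, the 3 genes most like each member over classes, and of 20 other factors the 3 most changed in each direction (only 2 were lower) and the one with the smallest genotype p in all Gad nuclei. Microglia Maf beyond that rule, the index comparison and the division of Reln nuclei by Sst were added after values were seen. Replicates of a group differed by more than sampling noise (chi-square per degree of freedom 9.86 to 18.0).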

Additional observations from a re-analysis of the deposited data

Results flagged for a closer look

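In 3 of the 74 groups of 4 libraries examined, 1 library lay far from the other 3; chance flags about 1 in 20 such groups. Nr2f2 in all Gad nuclei was at 12.4 CPM in Chd8het female 2, where the other 3 Chd8het libraries were at 21.3 to 21.5; WT female 2 was at 13.0. Lhx6 in Pvalb nuclei was at 8.07 CPM in WT male 2, on 1 UMI in 12 nuclei, where the other 3 WT libraries were at 57.7 to 64.5. Satb1 in Reln nuclei was at 174 CPM in WT male 1, where the other 3 WT libraries were at 187.3 to 187.8.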

How the results depend on the processing

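Among the single genes named, 1770 of the values under alternatives kept their direction and their side of the threshold, 34 changed sign, 19 lost a call and 8 gained one. The calls of Lhx6, Sox6, Satb1, Prox1, Nr2f2, Npas1 and Npas3 between the Pvalb/Sst and Vip/Reln pairs held under every alternative in which the gene was tested (at 5 Gad UMIs only Sox6, Satb1, Prox1 and Npas3 of these were); the lost calls were those of Dlx1 between the pairs, Satb1 and Maf between Pvalb and Sst, Maf between Vip and Reln, and Nr2f2 against endothelial-like nuclei without WT female 2. The gained calls were those of Sox6 and Prox1 between Pvalb and Sst, Sox6 against astrocyte-like nuclei and Maf by genotype in microglia-like nuclei. With at least 5 Gad UMIs, which leaves fewer nuclei, 3028 genes were tested in place of 5612. Of the 3028, 1031 were called between the pairs, 984 between Pvalb and Sst and 641 between Vip and Reln. Of the 5612, 1933, 1834 and 1537 had been called.

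Genotype calls, 0 as reported, rose with no filter to 3 in OPC-like, 14 in Pvalb, 26 in Reln, 9 in Sst, 3 in Vip, 1 in all Gad, 9 in astrocyte-like, 97 in microglia-like and 12 in oligodendrocyte-like nuclei; with sex and index type to 3 in Pvalb, 3 in Vip, 1 in excitatory-like and 37 in microglia-like nuclei; and with DESeq2 to 3 in excitatory-like and 3 in microglia-like nuclei. In Pvalb nuclei they were 2 at 5 Gad UMIs, 4 without Slc17a7 nuclei, 1 with doublets kept and 2 with the other markers at 0. Leaving out 1 library gave 0 to 10 in Pvalb, 0 to 4 in Reln and 0 to 1 in Sst nuclei; the highest were without Chd8het female 2 (Pvalb) and without Chd8het female 1 (Reln, Sst). The cause was not tested.

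The replicate block, with the 4 assumed pairs as terms, called 4 genes in Pvalb, 13 in Reln, 2 in Sst and 68 in microglia-like nuclei. Of the members only Maf in microglia-like nuclei was among those called, and the block changed no other call of a member.

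The share of nuclei with Lhx6 and Sox6 together, which moves with the share of each gene, differed between the pairs at 2000 UMIs by 1.00 percentage points in 1 random draw, but by 4.54 as the mean over all draws, computed after that value was seen. Lhx6 with Prox1 turned to 0.0832 with 1 marker UMI. Shares of Gad nuclei turned at 5 Gad UMIs to -0.573 for Sst and -0.325 for Vip, and to -0.276 for Pvalb with doublets kept; without 1 library they ran from -0.436 to 0.637 for Pvalb, -0.658 to 1.15 for Sst, -0.425 to 0.602 for Vip and -4.54 to -0.294 for Reln.

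The sign changes were of differences that were not called. Maf between the pairs was at -0.0728 with no filter, -0.0186 without Slc17a7 nuclei and -0.0281 with Reln and Sst exclusive. Between Pvalb and Sst with 1 marker UMI, Lhx6 was at 0.0671, Sox6 at 0.0696 and Dlx1 at -0.40; Dlx1 was at -0.0909 with the other markers at 0 and between -0.11 and 0.33 without 1 library. Nr2f2 between Vip and Reln was at -0.0187 with DESeq2, -0.10 with no filter, -0.11 with 1 marker UMI, -0.30 with the other markers at 0, -0.19 with Reln and Sst exclusive and between -0.15 and 0.17 without 1 library. Npas3 against OPC-like nuclei was at 0.0231 without Slc17a7 nuclei, and Maf against fibroblast-like nuclei at -0.0872 with DESeq2 size factors, -0.0876 with DESeq2 and -0.0032 with doublets kept. By genotype in all Gad nuclei without 1 library, Lhx6 ran from -0.10 to 0.053, Sox6 from -0.11 to 0.0033, Prox1 from -0.16 to 0.044, Nr2f2 from -0.10 to 0.19, Npas1 from -0.17 to 0.11 and Dlx1 from -0.29 to 0.042; Npas1 was at 0.12 at 5 Gad UMIs and 0.0076 with doublets kept. Npas3 by genotype in Sst nuclei, at -0.38 as reported, was at 0.00034 with the other markers at 0. Maf in Vip nuclei, at -0.26 as reported, was at 0.11 at 5 Gad UMIs. Small nuclei numbers (12 to 32 Pvalb and 9 to 43 Sst nuclei per library) limit every genotype value in those groups.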
